A study of Mus musculus with 4 samples.

Results

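The genes described here encode receptors with which colonic epithelial cells and leukocytes sense microbes, together with their closest partners. They are the 10 genes *Tlr2*, *Tlr3*, *Tlr4*, *Tlr5*, *Myd88*, *Cd14*, *Ly96*, *Nod1*, *Nod2* and *Nlrp6*, found by symbol among the 16015 genes of the deposited table, and all 10 were listed. Their levels were compared between colonic epithelial cells of 2 control mice and 2 *Bmal1* cKO mice, each given 3% dextran sulfate sodium (DSS), which injures the colonic epithelium, in the drinking water for 5 days and water for 2 more days before collection on day 7. The comparison asks how loss of the clock factor BMAL1 from the epithelium changes the response to that injury. *Bmal1* cKO mice carried *Villin-CreERT2* and *Bmal1* fl/fl. The *Villin* promoter places the tamoxifen-dependent Cre in intestinal epithelial cells, so leukocytes and stromal cells are not targeted. Controls are labelled WT, and the methods give *Bmal1* fl/fl mice as the controls. All mice were C57BL/6, 2 to 4 months old and of the same litter, and tamoxifen was injected for 5 days to activate Cre. The methods do not say whether controls received it. Crypts were released with EDTA, scraped and filtered, and no sort by a surface marker is described.

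Toll-like receptors are membrane proteins that bind conserved microbial molecules and pass the signal to NF-κB through adaptors, of which MyD88 serves every Toll-like receptor except TLR3. TLR4 binds lipopolysaccharide together with MD-2, the product of *Ly96*, after CD14 has delivered it. TLR2 binds bacterial lipoproteins, TLR5 binds flagellin at the cell surface, and TLR3 binds double-stranded RNA inside endosomes. NOD1 and NOD2 are cytosolic receptors for fragments of bacterial peptidoglycan and signal through the kinase RIPK2. NLRP6 is a cytosolic receptor of the gut epithelium that has been linked to inflammasome formation and mucus release by goblet cells. In the colon these receptors face a dense bacterial community, and the epithelium and the leukocytes beneath it carry different sets of them.

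BMAL1 binds the E-box CACGTG, so the bases before the start of the genes were searched for it. RefSeq windows of the same build, the 250 bases before a start, were at hand for 7 of the 10 genes. They are shown, up to the first base that GENCODE annotates as UTR, for *Nod1* (its outer start), *Nlrp6* and *Nod2*, which passed the test between the groups.
*Nod1* (GRCm38, chr6:54972613-54972862, minus strand): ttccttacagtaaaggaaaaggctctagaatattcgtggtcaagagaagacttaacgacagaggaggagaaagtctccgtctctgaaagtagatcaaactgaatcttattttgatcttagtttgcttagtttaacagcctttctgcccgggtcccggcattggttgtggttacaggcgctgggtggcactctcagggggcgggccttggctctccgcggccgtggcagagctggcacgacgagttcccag
*Nlrp6* (GRCm38, chr7:140920652-140920901, plus strand): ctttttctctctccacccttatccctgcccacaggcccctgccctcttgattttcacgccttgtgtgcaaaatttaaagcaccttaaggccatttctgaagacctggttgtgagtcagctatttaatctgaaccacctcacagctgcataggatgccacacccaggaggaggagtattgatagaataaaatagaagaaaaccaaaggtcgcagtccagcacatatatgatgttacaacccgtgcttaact
*Nod2* (GRCm38, chr8:88647097-88647314, plus strand): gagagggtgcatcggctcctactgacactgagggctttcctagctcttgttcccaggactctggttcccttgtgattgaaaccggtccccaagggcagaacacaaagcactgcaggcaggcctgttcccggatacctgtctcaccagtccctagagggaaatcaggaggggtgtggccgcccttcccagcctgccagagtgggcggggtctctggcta
None of the 8 windows of these 7 genes held CACGTG, which 6.02% of all 32851 such windows did. At that share, its absence from 8 windows says little, and it leaves BMAL1 binding elsewhere open. No window was at hand for *Tlr4*, *Ly96* and *Cd14*.

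The windows were also searched on both strands for the NF-κB binding consensus, which 7.25% of all windows held, and for the core of the interferon-stimulated response element, 2 GAAA repeats with 2 bases between them, which 2.98% held. The NF-κB consensus was found in the windows of *Tlr3*, 211 bases before the RefSeq start, and *Tlr2*, where 2 overlapping matches began 173 and 172 bases before it. Among these genes the other core was found only in *Myd88*, 40 bases before the RefSeq start. The 30 bases around the matches are shown, with the matched letters in capitals.
*Tlr3* (GRCm38, chr8:45410572-45410601, minus strand): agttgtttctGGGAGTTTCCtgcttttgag
*Tlr2* (GRCm38, chr3:83841762-83841791, minus strand): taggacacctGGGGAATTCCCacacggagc
*Myd88* (GRCm38, chr9:119340039-119340068, minus strand): gagcttctcgGAAAGCGAAAgaaggagggg
The *Tlr3* site lies in a first exon of other GENCODE transcripts of the gene. The *Myd88* site lies inside the GENCODE span of its gene, which starts at 119341411 on the minus strand. Of the 30 bases shown for *Tlr2*, 6 are annotated as UTR. A match only describes these letters in this window.

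The libraries held between 10312791 and 14156639 reads on listed genes. Gene positions are on GRCm38. Levels are normalized counts, that is reads divided by the size factor of their library. *Arntl*, the listed name of the targeted gene *Bmal1*, stood at 358 and 342 in controls against 341 and 289 in cKO-labelled mice. Its log2 fold change of -0.16 (SE 0.14) did not pass the test (adjusted p = 0.389, limma), nor did its GC-corrected value of -0.44 (adjusted p = 0.0608). The sources used here do not give the deleted exons, and a count over the whole gene can hold transcript from outside them, so this does not check the deletion, and the groups are called by their labels. Log2 fold changes compare log2(normalized count + 1), cKO-labelled minus control, for the 13983 genes whose mean reached 10. They followed the GC content of the genes (Spearman's rho -0.61 across 13975 genes, which are not independent replicates), from a median of 1.13 in the lowest of 10 equal GC classes to -1.35 in the highest. GC-corrected values, for which a smooth trend over GC content and exon length was taken out of every library, are therefore given beside uncorrected log2 fold changes.

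Markers of other cells also moved with the groups. The counts of markers called are to be set against 27.7% of all tested genes lower and 29.0% higher, and after the GC correction against 18.1% and 17.7%. *Epcam*, which marks epithelium, stood at 17455 and 21772 normalized counts in controls and at 18588 and 20320 in cKO-labelled mice, and of 12 epithelial markers 3 were lower and 2 higher, with sums of 191502 and 260690 against 165654 and 190557. After the GC correction 2 of these were lower and 4 higher, and the median of the list went from -0.18 to 0.14. The 12 macrophage markers summed to 7799 and 3219 normalized counts in controls and to 549 and 735 in cKO-labelled mice, and 10 of the 12 were lower with an adjusted p under 0.05 (also 10 after the GC correction). *C1qc* had at most 3 reads in each cKO-labelled library. Neutrophil markers, 6 of 8 listed and all 6 lower (5 after the GC correction), summed to 8764 and 25418 against 3501 and 2834. *Mpo* and *Elane* were not analysed here. Lymphocyte markers, with 3 of 8 tested lower and 1 after the GC correction, summed to 8934 and 293 against 206 and 380. Of the 12 stromal and vessel markers 11 were lower (also 11 after the GC correction), with sums of 15698 and 3615 against 467 and 524, and *Des* had at most 3 reads in each cKO-labelled library. Control mouse 1 thus had the highest lymphocyte, macrophage and stromal sums and control mouse 2 the highest neutrophil sum, while the lymphocyte sum of control mouse 2 was below that of cKO-labelled mouse 2. No marker was at 0 in both libraries of a group. In bulk samples fewer cells of a type and less RNA per cell cannot be told apart, and the part of these cells in the results below was not tested.

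**Figure D1:**
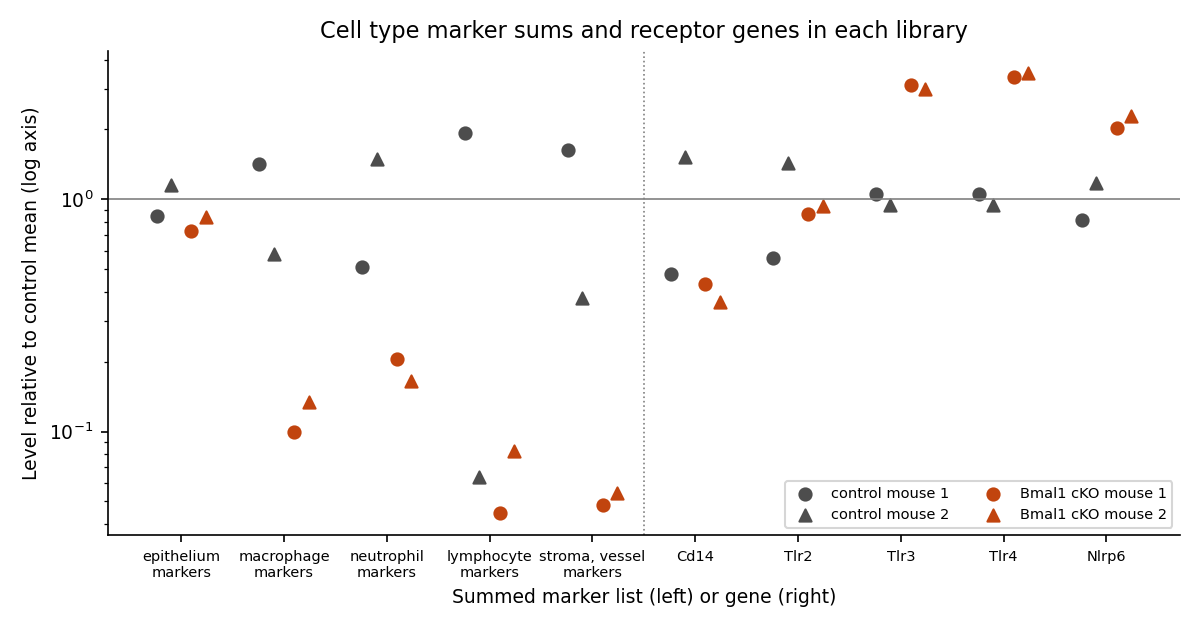
Summed normalized counts of 5 marker lists and normalized counts of 5 receptor genes in each library, divided by the mean of the control mice, on a log axis. Macrophage, neutrophil and stromal sums are lowest in the cKO-labelled libraries, where *Tlr3*, *Tlr4* and *Nlrp6* are highest, and *Cd14* and *Tlr2* stand highest in control mouse 2.

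Of the 10 genes, 5 were higher in the cKO-labelled mice, namely *Tlr4*, *Tlr3*, *Nlrp6*, *Nod1* and *Ly96*, against a background of 29.0% of all tested genes. *Nod2* alone was lower, against 27.7% of all tested genes. The remaining 4, *Tlr2*, *Tlr5*, *Myd88* and *Cd14*, did not pass the test. The median log2 fold change was 0.40 over the 10 genes and -0.04 over all genes tested, and after the GC correction the medians were 0.03 and -0.02. Both cKO-labelled libraries stood above both control libraries for 5 genes, where 40.3% of all tested genes did, and below them for 3, where 41.7% did. After the GC correction 4 of the 10 genes were higher (17.7% of all tested genes) and 0 were lower (18.1%).

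**Figure D2:**
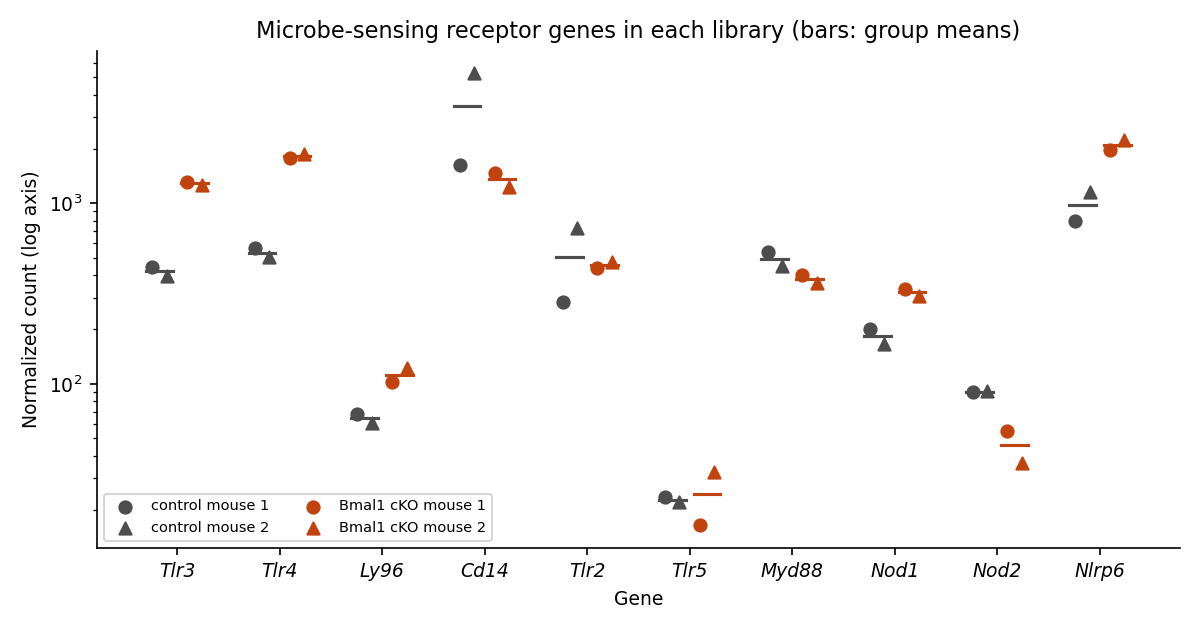
Normalized counts of the 10 genes in each of the 4 libraries on a log axis, with short bars at the group means. The cKO-labelled libraries lie above the control libraries for *Tlr3*, *Tlr4*, *Ly96*, *Nod1* and *Nlrp6*, and the control mice lie far apart for *Cd14* and *Tlr2*.

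*Tlr4*, the lipopolysaccharide receptor (chr4:66827584-66930284), stood at 563 and 501 normalized counts in controls and at 1784 and 1867 in cKO-labelled mice. The groups lay far apart, and the mice of each group differed little. The means rose 3.43-fold, from 532 ± 43.9 to 1825 ± 58.8 (SD, n = 2 per group), and the log2 fold change was 1.78 (SE 0.10, adjusted p = 5.33e-04, limma). With a GC content of 39.4%, *Tlr4* lies in the lowest GC class, whose median was 1.13, and the GC-corrected log2 fold change was 0.67 (adjusted p = 0.00810). Macrophages express *Tlr4* too, and their summed markers were lower in each cKO-labelled library than in each control library. Which cells gave the *Tlr4* reads was not tested.

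*Ly96* (chr1:16688051-16709611), the MD-2 partner of TLR4, stood at 68.4 and 61.0 normalized counts in controls and at 102 and 122 in cKO-labelled mice. The groups did not overlap, on 72 to 99 reads per library. The log2 fold change of 0.78 (SE 0.25, adjusted p = 0.0444, limma) was near the threshold. At a GC content of 41.1% its GC-corrected value was -0.04 (adjusted p = 0.911). It passed in 3 of 15 alternatives and in none of the 4 fits that left out a mouse. In those fits the log2 fold change was 0.86 and 0.69 without control mouse 1 and 2, and 0.90 and 0.65 without cKO-labelled mouse 1 and 2.

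*Cd14* (chr18:36725067-36726798), the coreceptor that hands lipopolysaccharide to MD-2 and TLR4, stood at 1636 and 5241 normalized counts in controls and at 1479 and 1237 in cKO-labelled mice. Control mouse 2 stood apart, while control mouse 1 was close to the cKO-labelled mice. The log2 fold change of -1.11 (SE 0.52, 95% interval -2.43 to 0.20) did not pass the test (adjusted p = 0.120, limma). Without control mouse 1 it was -1.95 (adjusted p = 0.0141), and without control mouse 2 it was -0.27 (adjusted p = 0.226). Its GC-corrected value was -0.78 (adjusted p = 0.281). The neutrophil marker sum was also highest in control mouse 2 and lowest in cKO-labelled mouse 2, and the macrophage sum was highest in control mouse 1. Which cells gave the *Cd14* reads was not tested. Per kilobase of exon, the ratio of *Cd14* to *Tlr4* was 9.33 and 33.6 in controls and 2.66 and 2.13 in the cKO-labelled mice. The ratio of *Tlr4* to *Ly96* was 1.51 in each control mouse and 3.22 and 2.82 in the cKO-labelled mice. Neither ratio overlapped between the groups. The log2 change of *Cd14* over *Tlr4* was -2.89, and -1.45 after the GC correction, and that of *Tlr4* over *Ly96* was 1.0 and 0.71.

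*Tlr2* (chr3:83836272-83841767), the receptor for bacterial lipoproteins, stood at 284 and 727 normalized counts in controls and at 439 and 474 in cKO-labelled mice. The cKO-labelled values fell between those of the control mice, so the groups overlapped. Its log2 fold change was 0.01 (SE 0.43, 95% interval -1.06 to 1.08, adjusted p = 0.990, limma), and -0.10 after the GC correction (adjusted p = 0.861). It was -0.67 without control mouse 1 (adjusted p = 0.0368) and 0.68 without control mouse 2 (adjusted p = 0.0416), so the choice of control mouse set the direction. As with *Cd14*, control mouse 2 had the highest level and the highest neutrophil marker sum. Control mouse 1 had the lowest *Tlr2* level, and its neutrophil sum of 8764 was above those of the cKO-labelled mice (3501 and 2834). A link between *Tlr2* and that sum was not tested.

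*Tlr5* (chr1:182954788-182976044), the surface receptor for flagellin, stood at 23.7 and 22 normalized counts in controls and at 16.5 and 32.4 in cKO-labelled mice. These rest on 16 to 28 reads per library, and the groups overlapped. The log2 fold change of 0.02 (SE 0.52, adjusted p = 0.976, limma) had a 95% interval from -1.29 to 1.33, which does not exclude a 2-fold change in either direction. The 2 cKO-labelled mice lay farther apart than the controls. The GC-corrected value was -0.27 (adjusted p = 0.705).

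*Tlr3* (chr8:45395665-45411080), the endosomal receptor for double-stranded RNA whose NF-κB match is shown above, stood at 445 and 396 normalized counts in controls and at 1315 and 1262 in cKO-labelled mice. Every cKO-labelled value was well above every control value. The means rose 3.06-fold, from 421 ± 34.5 to 1289 ± 36.8 (SD, n = 2 per group), and the log2 fold change was 1.61 (SE 0.11, adjusted p = 5.33e-04, limma). Its GC content of 40% also lies in the lowest class, and the corrected log2 fold change was 0.57 (adjusted p = 0.0140). An antisense gene, *Gm45542*, shares 381 exonic bases with it, and whether the counting used the strand is not given in the sources used here.

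*Myd88* (chr9:119335934-119341411), the adaptor shared by the other Toll-like receptors, stood at 535 and 448 normalized counts in controls and at 401 and 361 in cKO-labelled mice. The cKO-labelled libraries were the lower ones, without overlap. The log2 fold change of -0.36 (SE 0.14) missed the threshold (adjusted p = 0.0777, limma) and was 0.09 after the GC correction (adjusted p = 0.644). *Acaa1a*, on the opposite strand, shares 290 exonic bases with it.

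**Figure D3:**
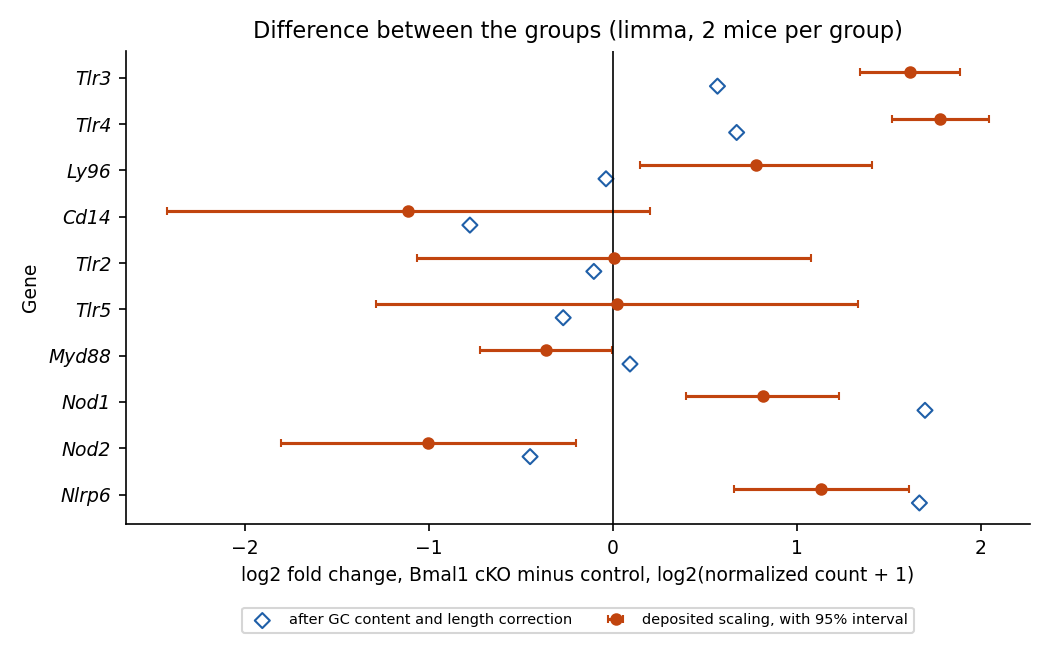
Log2 fold change of each gene, cKO-labelled minus control mice, with its 95% interval from limma (filled points), and its GC-corrected value (open diamonds). The intervals of *Tlr3*, *Tlr4*, *Ly96*, *Nod1* and *Nlrp6* lie above 0, and the correction lowers *Tlr3* and *Tlr4* and raises *Nod1* and *Nlrp6*.

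*Nod1* (chr6:54923949-54972612) and *Nod2* (chr8:88647315-88688474), the peptidoglycan receptors, moved in opposite directions. *Nod1* stood at 200.2 and 167 normalized counts in controls and at 336 and 308 in cKO-labelled mice. The means rose 1.76-fold, from 184 ± 23.6 to 322 ± 19.9 (SD, n = 2 per group), with no overlap and a log2 fold change of 0.81 (SE 0.17, adjusted p = 0.0101, limma). At a GC content of 57.1%, in a class with a median of -0.82, the GC-corrected value was 1.70 (adjusted p = 0.00353). The call was lost in 3 of the 4 fits that left out a mouse. In these the log2 fold change was 0.75 without cKO-labelled mouse 1, 0.88 without cKO-labelled mouse 2 and 0.68 without control mouse 2. Without control mouse 1 it was 0.94.

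*Nod2* stood at 90.4 and 90.6 normalized counts in controls and at 54.5 and 36.5 in cKO-labelled mice. All cKO-labelled values were the lower ones, on 27 and 53 reads against 107 in each control library. The log2 fold change of -1.0 (SE 0.32, adjusted p = 0.0419, limma) was near the threshold and was -0.45 after the GC correction (adjusted p = 0.292). It passed in 5 of 15 alternatives and in none of the 4 fits that left out a mouse. Per kilobase of exon the ratio of *Nod1* to *Nod2* was 2.19 and 1.82 in controls and 6.09 and 8.34 in cKO-labelled mice, a log2 change of 1.82 that was 2.15 after the GC correction.

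*Nlrp6*, the receptor gene of the gut epithelium (chr7:140920902-140929192) stood at 797 and 1150 normalized counts in controls and at 1975 and 2234 in cKO-labelled mice. The groups did not overlap. The means rose 2.16-fold, from 973 ± 250.0 to 2105 ± 183 (SD, n = 2 per group), and the log2 fold change was 1.13 (SE 0.19, adjusted p = 0.00512, limma). The median of its GC class was -0.55, and its GC-corrected value was 1.67 (adjusted p = 0.00490). Without cKO-labelled mouse 2 it no longer passed (log2 fold change of 1.04, adjusted p = 0.0638).

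**Figure D4:**
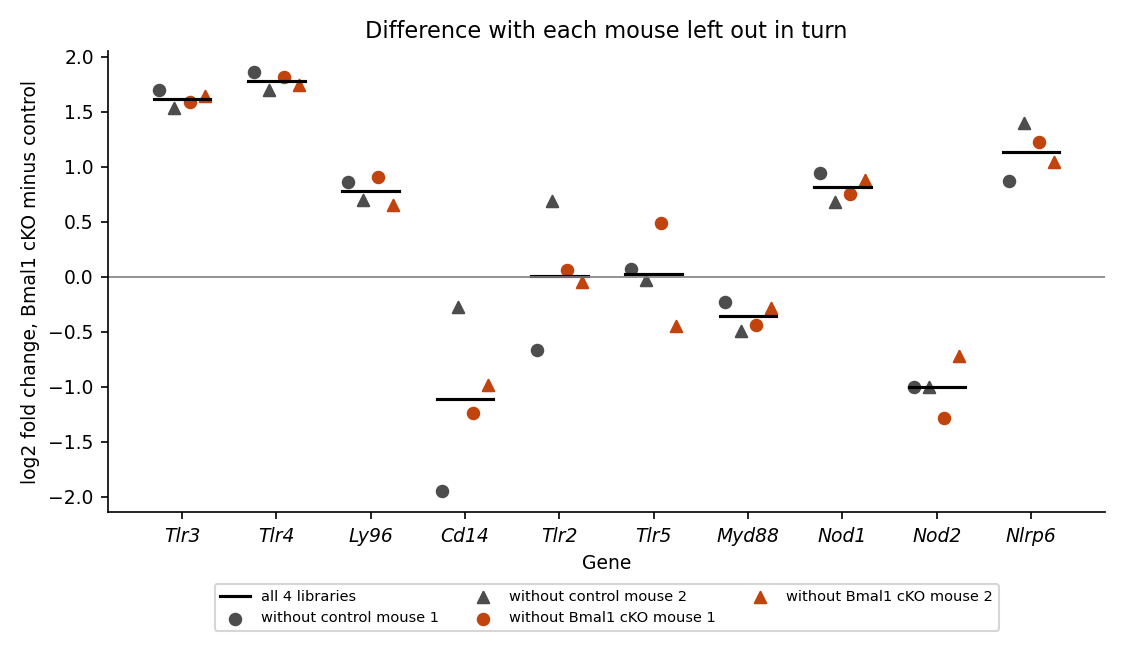
Log2 fold change of each gene from all 4 libraries (bars) and from fits that leave out 1 mouse each (points). *Tlr3* and *Tlr4* stay between 1.53 and 1.86, while *Tlr2* lies on either side of 0 depending on which control mouse is left out.

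Scaling by the library total in place of the size factors moved the median of all genes from -0.04 to -0.26. It called 22.1% of all genes higher and 34.9% lower, and of the 10 genes 4 were higher and 2 lower, with *Ly96* no longer called (adjusted p = 0.114) and *Myd88* called (log2 fold change of -0.59, adjusted p = 0.0225). *Tlr3*, *Tlr4*, *Nlrp6*, *Nod1* and *Nod2* kept their direction and their call under it.

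Levels were also compared between the genes, as normalized counts per kilobase of exon. In the control mice the order from high to low was *Cd14*, *Nlrp6*, *Myd88*, *Tlr2*, *Tlr4*, *Tlr3*, *Ly96*, *Nod1*, *Nod2* and *Tlr5*, from 945 and 3026 for *Cd14* down to 4.94 and 4.6 for *Tlr5*. The ranges of *Nlrp6* and *Myd88*, of *Myd88* and *Tlr2*, and of *Tlr2* and *Tlr4* overlapped, and the other neighbours lay apart. In the cKO-labelled mice *Tlr4* (321 and 336) and *Tlr3* (252 and 242) followed *Cd14* and *Nlrp6* (389 and 440) and stood above *Tlr2* and *Myd88*, whose ranges overlapped. The lower end of the order, from *Ly96* to *Tlr5*, was the same in both groups.

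The other genes of the pathway were taken by role in 9 lists of 96 genes, of which 91 were listed and 89 tested. Of these, 31 were lower (34.8%, against 27.7% of all tested genes) and 29 were higher (32.6%, against 29.0%). The median log2 fold change of the 89 genes was 0.03. The GC correction left 22 lower (24.7%, against 18.1%) and 17 higher (19.1%, against 17.7%). These shares of all genes are the background of each list below. Of the 29 genes named from the lists by size, 13 were called with any 1 mouse left out and 16 lost their call without at least 1 mouse, as given beside them. Of 7 further Toll-like receptors tested, with the related *Cd180* among them, 3 were lower and 1 was higher (4 and 1 after the GC correction), and the median was -2.06. *Tlr1*, which pairs with TLR2, stood at 1020 and 1009 normalized counts in controls and at 2270 and 2570 in cKO-labelled mice, a log2 fold change of 1.25 (SE 0.10, adjusted p = 6.45e-04, limma) that was 0.69 after the GC correction (adjusted p = 0.00647). *Tlr9*, the endosomal receptor for unmethylated DNA, had 102 and 26.3 against 1.03 and 5.41, a log2 fold change of -3.88 (SE 0.96, adjusted p = 0.0192) that was -3.14 and not called after the GC correction (adjusted p = 0.0552). It rests on 1 and 4 reads in the cKO-labelled libraries. Its call was lost without control mouse 1 (-2.92) and without cKO-labelled mouse 1 (-3.05) or 2 (-4.71), and it was -4.84 without control mouse 2 and -2.87 with a pseudocount of 5. *Cd180*, a receptor relative known from B cells, had 66.7 and 24.6 against 2.06 and 8.11 (log2 fold change of -2.98, adjusted p = 0.0297, GC-corrected -3.42), and lost its call without the same mice (-2.28, -2.19 and -3.77). It was -3.68 without control mouse 2 and -2.26 with a pseudocount of 5. *Tlr6*, named after its values were seen because it also pairs with TLR2, was not called (log2 fold change of 0.03, adjusted p = 0.965, GC-corrected -0.46). Per kilobase of exon the ratio of *Tlr1* to *Tlr2* was 3.24 and 1.25 in controls and 4.66 and 4.88 in cKO-labelled mice.

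Among 6 partners and chaperones of the receptors 3 were lower and 1 was higher, and after the GC correction 1 and 1. *Hsp90b1*, the endoplasmic reticulum chaperone that folds Toll-like receptors, stood at 7060 and 5889 normalized counts in controls and at 16980 and 18888 in cKO-labelled mice (log2 fold change of 1.47, adjusted p = 8.94e-04, limma), which was 0.65 after the GC correction (adjusted p = 0.0193). *Unc93b1*, which carries receptors to endosomes, had 983 and 507 against 246 and 229.8, a log2 fold change of -1.57 (adjusted p = 0.00928) that was -0.66 after the GC correction (adjusted p = 0.151). It was not called without cKO-labelled mouse 1 (-1.62) or 2 (-1.52). *Ly86*, the partner of CD180, had 168 and 29.6 against 10.3 and 6.76 (log2 fold change of -2.94, adjusted p = 0.0342, GC-corrected -3.22). It lost its call without control mouse 1 (-1.71) and without cKO-labelled mouse 1 (-3.21) or 2 (-2.67) and with a mean of at least 50 (adjusted p = 0.0571), and was -4.18 without control mouse 2 and -3.53 with DESeq2.

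Of 20 adaptors, kinases and transcription factors 9 were higher and 8 lower, and after the GC correction 2 were higher and 2 lower. The 2 named by size among those that rose encode subunits of the IκB kinase. *Ikbkg* had 610.0 and 758 normalized counts against 1588 and 1302, and *Chuk* 1411 and 1616 against 3084 and 3074. Their log2 fold changes of 1.08 and 1.03 were 0.44 and 0.11 after the GC correction and no longer passed (adjusted p = 0.0761 and 0.427, limma). Among those that fell, the interferon regulatory factors *Irf5* and *Irf7* had log2 fold changes of -3.29 and -1.26. *Irf5* had 191 and 41.5 normalized counts in controls against 12.3 and 5.41, and *Irf7* had 649.7 and 703 against 324 and 246. The GC-corrected value of *Irf5* was -2.58 and no longer passed (adjusted p = 0.0615), and that of *Irf7* was -0.59 (adjusted p = 0.0363). *Irf5* was also not called without control mouse 1 (-2.20) and without cKO-labelled mouse 1 (-3.82) or 2 (-2.76), and was -4.38 without control mouse 2.

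Among 9 tested brakes on the pathway 3 were lower and 1 was higher, and after the GC correction 2 and 2. *Irak3*, an inhibitory kinase relative known from monocytes and macrophages, had 150.4 and 222 normalized counts against 24.7 and 44.6, a log2 fold change of -2.42 (SE 0.39, adjusted p = 0.00443, limma) that was -2.50 after the GC correction. Without control mouse 2 it was -2.15 and not called (adjusted p = 0.0501). *Tnip1*, a partner of the deubiquitinating enzyme A20, fell by 1.48 on the log2 scale, and its GC-corrected value of -0.50 was not called (adjusted p = 0.0815). *Cyld*, a deubiquitinase, rose from 766 and 734 to 1604 and 1526 (log2 fold change of 1.06, adjusted p = 7.46e-04), and its GC-corrected value was 0.34 (adjusted p = 0.0391).

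In the list for NOD signaling and peptide transport 5 of 11 genes were higher and 2 lower, and after the GC correction 3 and 1. *Ripk2*, the kinase of NOD1 and NOD2, had 219 normalized counts in each control mouse against 455 and 629, a log2 fold change of 1.29 (SE 0.19, adjusted p = 0.00317, limma) that was 1.01 after the GC correction. *Xiap*, a ubiquitin ligase for RIPK2, rose from 2300 and 2207 to 6032 and 6085, but its log2 fold change of 1.43 was 0.13 after the GC correction (adjusted p = 0.278). *Slc15a3*, a peptide transporter of endosomes, had 160 and 494 against 14.4 and 10.8, a log2 fold change of -4.39 (SE 0.58, adjusted p = 0.00231) that was -3.41 after the GC correction, -5.20 without control mouse 1 and -3.57 without control mouse 2. *Card9*, an adaptor known from myeloid cells, had 39.7 and 20.3 against 3.09 and 0, which rests on at most 3 reads in each cKO-labelled library. Its log2 fold change of -3.87 (adjusted p = 0.0233, limma) was -3.00 and not called after the GC correction (adjusted p = 0.0690). It was also not called without control mouse 1 (-3.40), control mouse 2 (-4.33) or cKO-labelled mouse 2 (-2.85), and was -4.88 without cKO-labelled mouse 1.

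The inflammasome list had 9 of 15 genes higher and 4 lower, and 7 and 4 after the GC correction. *Casp1*, the protease of inflammasomes, rose from 975 and 1107 normalized counts to 3832 and 4036 (log2 fold change of 1.92, SE 0.10, adjusted p = 5.33e-04, limma), and *Il18*, its cytokine substrate in epithelium, from 877 and 693 to 2186 and 3066. Both also passed after the GC correction, at 1.03 and 1.30. *Nlrp3*, a sensor known from myeloid cells, had 94.6 and 639 in controls against 31.9 and 12.2, and *Il1b*, a cytokine of activated myeloid cells, had 879 and 4261 against 265 and 173. For both, control mouse 2 was the highest library, as it was for the neutrophil marker sum, and a link to that sum was not tested. Their log2 fold changes were -3.57 and -3.17 (adjusted p = 0.0250 and 0.0148), and -3.44 and -3.58 after the GC correction. *Nlrp3* was not called without control mouse 2 (-2.20) and without cKO-labelled mouse 1 (-4.23) or 2 (-2.91), and was -4.94 without control mouse 1. *Il1b* was -4.31 without control mouse 1, -2.03 without control mouse 2, and not called without cKO-labelled mouse 1 (-3.48) or 2 (-2.86).

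Of 10 genes that these receptors induce, 5 were lower and 1 was higher, and after the GC correction 5 and 0. The chemokine genes *Cxcl2* and *Cxcl1*, which attract neutrophils, were among the lower ones. *Cxcl2* had 559 and 4157 normalized counts in controls against 181 and 82.5 (log2 fold change of -3.63, adjusted p = 0.0229), and *Cxcl1* had 451 and 158 against 56.6 and 13.5 (log2 fold change of -3.21, adjusted p = 0.0191). Their GC-corrected values were -4.18 and -3.80. Without control mouse 2, which had the highest *Cxcl2* level, *Cxcl2* was -2.18 and not called (adjusted p = 0.0563), nor was it called without cKO-labelled mouse 1 (-4.19) or 2 (-3.07), and it was -5.08 without control mouse 1. *Cxcl1* was not called without control mouse 1 (-2.46) or 2 (-3.97) or without cKO-labelled mouse 2 (-2.22), and was -4.21 without cKO-labelled mouse 1. *Nfkbiz*, an inducible IκB protein, rose from 1299 and 1723 to 1979 and 2359, a log2 fold change of 0.53 (SE 0.17, adjusted p = 0.0417, limma) that no longer passed after the GC correction (0.51, adjusted p = 0.0607), nor without control mouse 1 (0.33) or cKO-labelled mouse 1 (0.66) or 2 (0.40), nor with library total scaling (0.30, adjusted p = 0.144) or edgeR (0.51, adjusted p = 0.0561).

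**Figure D5:**
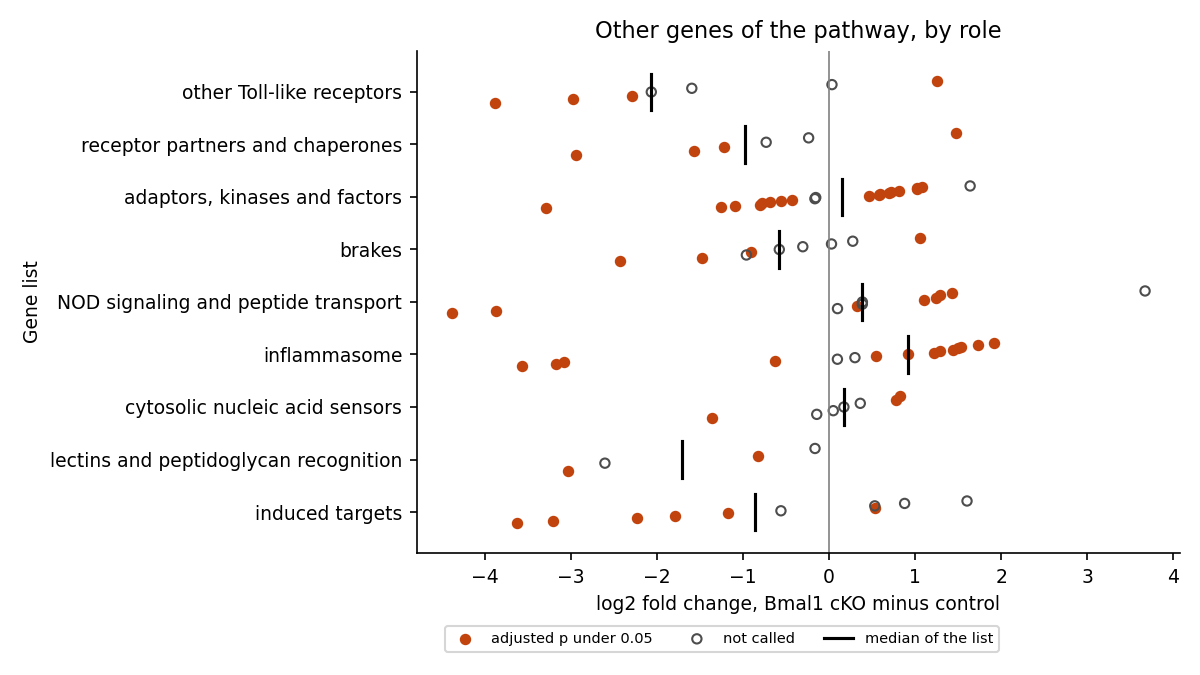
Log2 fold change, cKO-labelled minus control mice, of the 89 tested genes of the 9 lists, with a vertical bar at the median of each list. Filled points have an adjusted p under 0.05, and most lists hold such points on both sides of 0.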

How the data were processed

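Colonic epithelial RNA of 4 mice was sequenced by the authors, who aligned the reads to GRCm38 with STAR and used DESeq2 for normalization and testing. The counter, its use of strand and the annotation release are not given in the sources used here. The deposited level of a gene in a library is a signal, its count over the size factor of that library. All levels came out as whole reads (within 0.01), so reads could be recovered. The authors' own comparison, deposited as a log2 fold change with standard error, a Wald score, and raw and adjusted p-values, was not used.

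Log2(level + 1), which understates changes of low genes, was tested in limma 3.58.1 (trended variance, two-sided) for 13983 genes averaging 10 or more, with Benjamini-Hochberg adjustment at 0.05. The p-values rest only on the spread between these 4 mice, with the variance of each gene drawn toward a trend over all tested genes. Positions, exon lengths and GC content came from GENCODE M21, and upstream windows from RefSeq (GRCm38.p6). Alternatives were pseudocounts of 0.5 and 5, no filter or a mean of at least 50, scaling by library total or TMM, edgeR 4.0.16 and DESeq2 1.42.0 on recovered reads, mouse number as a block, GC and length correction (loess, span 0.3) alone or with that block, and omission of each mouse. With 2 mice per group an exact permutation test cannot reach a p below 0.333. The main limma fit, the edgeR and DESeq2 fits and the GC correction were tested on simulated data, and the other steps were not.

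The genes and lists were chosen with earlier results of these data known. All 10 receptor genes are described. From every list, genes that passed without overlap of the groups are named, at most the 2 that changed most in each direction, beside a few said to be named after their values were seen.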

Additional observations from a re-analysis of the deposited data

How the results depend on the processing

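*Tlr3* and *Tlr4* kept their direction and their call in 15 of 15 alternatives, with log2 fold changes of 0.57 to 1.70 and 0.67 to 1.86. *Nlrp6* kept its call in 14 of 15 and *Nod1* in 12 of 15. The number of the 10 genes called lower, 1 from all libraries, was 0 with a mean of at least 50, with edgeR (*Nod2* adjusted p = 0.0618), with DESeq2 (0.0914) and after the GC correction, and 2 with library total scaling. It ranged from 0 to 2 with a mouse left out, and the number called higher from 2 (without cKO-labelled mouse 2) to 4, against 5. In these fits the lone mouse is assumed to vary like the other group. Of the 89 other pathway genes, 17 were higher after the GC correction, against 29, and with a mouse left out 14 (without cKO-labelled mouse 2) to 22 were lower, against 31.

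With the mouse number as a block, 0 of the 10 genes were lower and 4 higher, and 32 pathway genes were lower and 29 higher. Together with the GC correction the block left 0 of the 10 genes lower, and 18 pathway genes lower and 16 higher. Equal numbers do not mark the same animal, and deviations of equally numbered mice had a correlation of -0.09.

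*Tlr2*, at 0.01, was -0.22 with library total scaling, -0.16 with edgeR, -0.15 with DESeq2 and -0.10 after the GC correction with or without the block, and ranged from -0.67 to 0.68 with a mouse left out. *Tlr5*, at 0.02, was -0.20 with library total scaling, -0.27 after the GC correction with or without the block, and -0.45 to 0.49 with a mouse left out. The GC correction, with or without the block, also turned *Myd88* from -0.36 to 0.0917, *Ly96* from 0.78 to -0.0388 and *Ifih1* from 0.78 to -0.0365. It turned the sign of 15 of the 89 pathway genes in all, 5 of them called before it. The cause was not tested. *Tlr5*, *Ly96* and *Nod2* rest on 16 to 107 reads per library, and the effect of depth on them was not tested.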

Other observations

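The genes of this paragraph, cytosolic receptors of the NAIP family and their partners, were chosen for naming after their values were seen. The NAIP proteins bind flagellin or the secretion needle of bacteria and recruit NLRC4. *Naip1* rose from 3548 and 3487 normalized counts in controls to 10234 and 10144 in cKO-labelled mice (log2 fold change of 1.53, adjusted p = 5.33e-04, limma). *Naip2*, *Naip5* and *Naip6* were higher by 1.28, 1.21 and 1.5 on the same scale, and all 4 also passed after the GC correction, at 0.73 to 1.07. These genes are close copies of each other, so the share of reads given to each is uncertain. *Nlrc4* rose by 0.54 (adjusted p = 0.0215) and was at 0.07 after the GC correction (adjusted p = 0.684). *Pycard*, the inflammasome adaptor, rose by 1.44 and was at 0.96 after the GC correction.

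Sensors of nucleic acids in the cytosol were called higher in 2 and lower in 1 of 7, and in 1 and 1 after the GC correction. *Ddx58* and *Ifih1*, which encode the RNA sensors RIG-I and MDA5, stood at 276 and 179 and at 1268 and 1378 normalized counts in controls, against 385 and 406 and 2429 and 2132. Neither passed after the GC correction (0.39, adjusted p = 0.240 and -0.04, adjusted p = 0.804). *Ddx58* was also not called without control mouse 2 (0.51) and without cKO-labelled mouse 1 (0.86) or 2 (0.79), nor with library total scaling (0.60, adjusted p = 0.0799). *Zbp1*, a sensor of Z-form nucleic acids, had 939 and 1016 against 559 and 258, a log2 fold change of -1.36 (adjusted p = 0.0225, GC-corrected -1.26). It was not called without control mouse 1 (-1.42) or 2 (-1.30), and was -0.81 without cKO-labelled mouse 2. Among 4 tested genes for lectins and peptidoglycan recognition 2 were lower. After the GC correction *Clec4n* and *Clec4e* (adjusted p = 0.0325, named after its values were seen) were. *Clec4n*, which encodes Dectin-2 of myeloid cells, had 164 and 67.8 against 13.4 and 10.8 (log2 fold change of -3.03, GC-corrected -3.48), and was not called without cKO-labelled mouse 2 (-2.89, adjusted p = 0.0573). It was -2.40 without control mouse 1 and -3.66 without control mouse 2. *Pglyrp1*, a peptidoglycan binding protein of neutrophil granules, had 6107 and 8117 against 4670 and 3389, a log2 fold change of -0.82 (adjusted p = 0.0205) that was not called after the GC correction (-0.37, adjusted p = 0.218), nor without control mouse 2 (-0.62) or cKO-labelled mouse 2 (-0.59).

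*Slc15a2*, a peptide transporter chosen for naming after its values were seen, had 2.53 normalized counts in control mouse 1 and 152 in control mouse 2, against 265 and 329.8 in cKO-labelled mice, and was not called (adjusted p = 0.112).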
